A study of Mus musculus with 19 samples.

Results

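The comparison described here sets the 6 libraries richest in Muc5b transcripts against the 6 poorest, out of 19 RNA-sequencing libraries of mouse oral tumours. The libraries were chosen by their counts-per-million (CPM) value of Muc5b, a gel-forming mucin of mucous salivary glands, taken as the raw count over the total of the library. The 6 highest are called gland-rich, the 6 lowest gland-poor, and the 7 between them the middle libraries; these names refer to Muc5b alone, since serous gland transcripts had another order over the libraries. Because a measured value chose the tiers, differences between them describe these libraries and carry no test. Tests were kept to the 7 middle libraries, which are in neither tier, and to the treatment groups, which the ranking did not use.

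All groups share the tumour model: C57BL/6J mice, 6 weeks old at the start, drank 4-nitroquinoline 1-oxide, a carcinogen that damages DNA, at 100 µg/ml for 10 weeks. Vehicle was given in 4 libraries, regorafenib, an oral inhibitor of several receptor kinases (5 mg/kg/day), in 4, and an antibody against PD1, an inhibitory receptor of T cells, in 3. Regorafenib plus anti-PD1, here the combination, was given in 5, and an anti-CD40 agonist in 3. The sources used here do not give the antibody doses, the dose of regorafenib in the combination, or whether every library is a separate mouse. Each p-value therefore refers to the variation among libraries, part of which may be technical.

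The mouth holds minor salivary glands in the tongue, palate and cheek beside the major glands. Mucous acini secrete large glycosylated mucins that form a gel, serous acini secrete enzymes and antimicrobial proteins in a watery fluid, ducts modify that fluid, and myoepithelial cells squeeze the acini. The serous von Ebner glands and the mucous Weber glands lie among the muscle of the posterior tongue. In a bulk library, more gland cells and more RNA per gland cell cannot be told apart.

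Muc5b (ENSMUSG00000066108.7, chromosome 7 from 141839070 to 141873084 on GRCm38) ran over 4 orders of magnitude. Its raw CPM was 14068 in anti-PD1 1, 13240 in combination 5, 5562 in regorafenib 2, 5101 in vehicle 2, 5016 in regorafenib 3 and 3421 in anti-PD1 2, the gland-rich libraries. The middle libraries held 934.5 CPM in anti-CD40 2, 295.7 in combination 1, 49.7 in combination 4, 26.4 in combination 3, 25.9 in combination 2, 14.7 in vehicle 4 and 13.5 in anti-CD40 3. The gland-poor libraries held 6.24 CPM in regorafenib 1, 5.08 in regorafenib 4, 2.51 in anti-CD40 1, 1.20 in vehicle 1, 1.10 in anti-PD1 3 and 0.744 in vehicle 3. The border of the gland-rich tier thus lay between 3421 and 934.5 CPM, and that of the gland-poor tier between 13.5 and 6.24. In the plot of Muc5b by library, vehicle, regorafenib and anti-PD1 each have libraries in both outer tiers. The combination had 1 gland-rich library and no gland-poor one, and anti-CD40 had 1 gland-poor library and no gland-rich one.

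**Figure D1:**
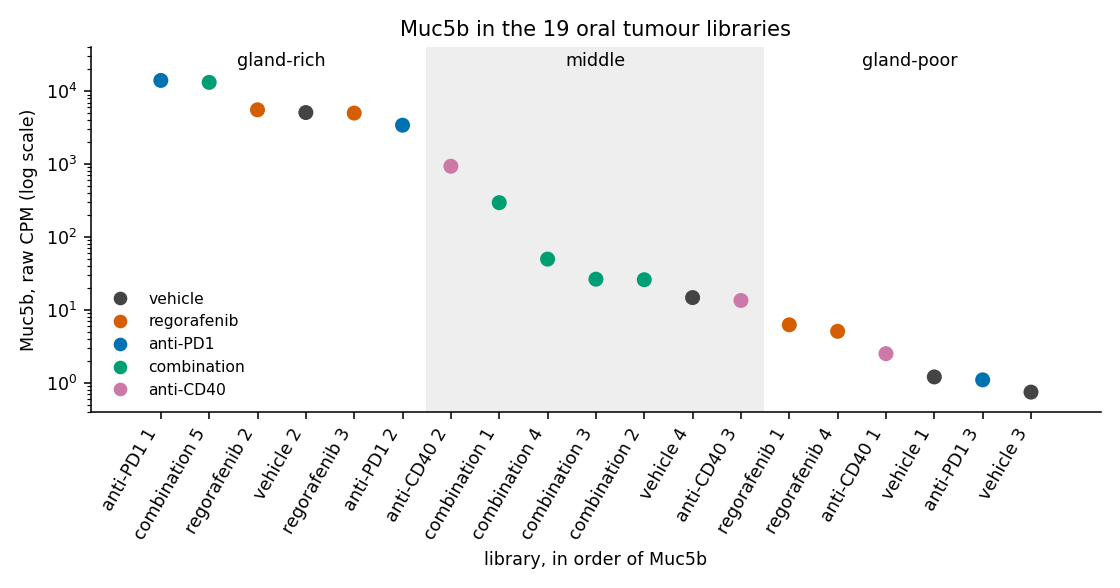
Raw CPM of Muc5b (log axis) in each of the 19 libraries, ordered by that value and coloured by treatment; the grey band marks the 7 middle libraries. Values fall from 14068 CPM in anti-PD1 1 to 0.744 in vehicle 3, and no treatment holds a tier alone.

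Library totals were 16776177 to 24969492 counts. Levels from here on are CPM scaled by the trimmed mean of M values (TMM). All 19 libraries expressed the squamous keratins of oral epithelium: Krt5 ranged over 2038 to 2783 CPM in the gland-rich and 2185 to 3576 CPM in the gland-poor libraries. Skeletal muscle genes were abundant in every library too, as the summed levels given further on show.

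Of 15968 genes besides Muc5b that passed the filter on low counts, 232 (1.45%) were counted as higher in the gland-rich libraries, meaning that all 6 lay above all 6 gland-poor libraries and that the fitted fold was at least 2. Only 1 gene (0.00626%) was counted as lower. Of the 232 genes, 89 were at least 8-fold and 25 at least 64-fold higher, and 94 were under 4-fold. The median log2 fold of all 15968 genes was -0.02, with the fifth percentile at -0.29 and the 95th at 0.38. The 232 genes took 0.617 to 1.36% of all counts in the gland-rich libraries and 0.0718 to 0.136% in the gland-poor ones, while Muc5b alone took 0.342 to 1.41% of counts in the gland-rich libraries. The single lower gene, Gm29521, is a predicted gene at 0.308 ± 0.075 against 0.802 ± 0.16 CPM (mean ± SD, n = 6 each). It is named although the rule for named genes leaves predicted genes out.

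The 20 genes with the largest fold and at least 5 CPM in the gland-rich libraries formed a set of mostly gland secretory genes. Those reported here were, in order, Bpifb2, Smgc, Gp2, Muc19, Bpifb6, Tff2, Lman1l, Ern2, Dcpp2, Chst4, Dcpp3, Agr2, Tmc5, B4galnt2, Olfm4, Aqp5, Pigr, Dcpp1 and Azgp1. Because they move together between the tiers, their promoters are shown for 6 genes: Gp2 and Bpifb2, which have large folds and high levels, and Lman1l, Chst4, Dcpp1 and Dcpp3, which hold a motif that was searched. The RefSeq table on GRCm38.p6 had a promoter for 15 of the 20 genes; Muc19, Tff2, Ern2 and Tmc5 had none there. Each sequence below is the 250 bases before the annotated start, 5′ to 3′ on the gene's strand, with motif letters in capitals. Positions are chr7:119459273-119459522 on the minus strand for Gp2, chr2:153874795-153875044 on the plus strand for Bpifb2, chr9:57620775-57621024 on the minus strand for Lman1l, chr8:110039335-110039584 on the minus strand for Chst4, chr17:23880626-23880875 on the plus strand for Dcpp1 and chr17:23917208-23917457 on the plus strand for Dcpp3.
Gp2: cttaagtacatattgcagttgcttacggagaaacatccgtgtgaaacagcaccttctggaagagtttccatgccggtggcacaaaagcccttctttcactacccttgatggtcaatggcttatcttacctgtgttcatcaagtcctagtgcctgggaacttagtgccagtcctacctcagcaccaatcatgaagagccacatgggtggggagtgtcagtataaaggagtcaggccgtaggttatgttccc
Bpifb2: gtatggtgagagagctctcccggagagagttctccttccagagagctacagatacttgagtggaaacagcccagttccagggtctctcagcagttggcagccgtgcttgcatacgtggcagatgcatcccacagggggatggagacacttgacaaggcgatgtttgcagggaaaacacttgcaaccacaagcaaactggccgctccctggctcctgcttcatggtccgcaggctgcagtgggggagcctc
Lman1l: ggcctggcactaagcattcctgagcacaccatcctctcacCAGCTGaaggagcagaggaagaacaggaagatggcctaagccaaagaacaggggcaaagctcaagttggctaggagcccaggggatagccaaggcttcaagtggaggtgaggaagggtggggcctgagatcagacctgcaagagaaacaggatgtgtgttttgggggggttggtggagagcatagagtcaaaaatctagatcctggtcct
Chst4: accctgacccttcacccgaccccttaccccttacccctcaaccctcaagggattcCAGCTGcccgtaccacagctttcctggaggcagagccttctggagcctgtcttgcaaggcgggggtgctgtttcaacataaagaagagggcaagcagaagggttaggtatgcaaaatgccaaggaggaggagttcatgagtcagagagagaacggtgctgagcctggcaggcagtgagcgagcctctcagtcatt
Dcpp1: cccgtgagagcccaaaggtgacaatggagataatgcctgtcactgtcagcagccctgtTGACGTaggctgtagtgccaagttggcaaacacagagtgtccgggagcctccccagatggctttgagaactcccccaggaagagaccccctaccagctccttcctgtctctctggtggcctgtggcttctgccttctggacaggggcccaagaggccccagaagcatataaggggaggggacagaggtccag
Dcpp3: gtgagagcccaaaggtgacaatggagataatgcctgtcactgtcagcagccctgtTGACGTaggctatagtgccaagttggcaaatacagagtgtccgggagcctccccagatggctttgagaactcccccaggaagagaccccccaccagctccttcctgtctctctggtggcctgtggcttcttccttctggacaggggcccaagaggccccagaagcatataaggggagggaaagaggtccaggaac
The motifs searched on both strands were CATATG and CAGCTG, E-boxes of the kind that basic helix-loop-helix factors such as Bhlha15 bind, and TGACGT, a core of the kind that Creb-type factors bind; none of the 3 overlaps another in its letters. CAGCTG was in the window of Lman1l and Chst4, or 2 of 15 genes, against 14.7% of 27025 genes in the table. TGACGT was in Dcpp1 and Dcpp3, or 2 of 15 genes, against 7.29% of all genes. CATATG was in Azgp1, or 1 of 15 genes, against 3.98%. Gp2 and Bpifb2 held none of the 3 in these windows. The Dcpp1 and Dcpp3 windows, set against each other with an offset of 3 bases, had the same base at 234 of 247 positions. These genes and Dcpp2 are near copies beside each other on chromosome 17, and Dcpp1 and Dcpp2 overlap on the same strand, so the division of reads among them is uncertain.

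Secreted proteins of mucous glands led the set. Bpifb2 (ENSMUSG00000027481.2, chromosome 2 from 153875045 to 153895270), a secreted protein of the bactericidal/permeability-increasing fold, stood from 672 to 2391 CPM (median 871) in the gland-rich libraries and from 0.0449 to 0.443 CPM (median 0.136) in the gland-poor libraries, a log2 fold of 12.69 ± 0.56 (SE). Its Bpif family neighbour Bpifb6 stood at 7.24 to 31.1 CPM in the gland-rich libraries and had 2 counts in all in the 6 gland-poor ones, a ratio of 1129 (95% interval 312 to 9326), an interval that covers counting error only. Gp2 (ENSMUSG00000030954.11, chromosome 7 from 119442537 to 119459285), a glycoprotein of secretory granule membranes that binds bacteria, stood from 467 to 1387 CPM (median 576) in the gland-rich libraries and from 0 to 1.66 CPM (median 0.22) in the gland-poor libraries. Its log2 fold was 10.82 ± 0.61; every gland-rich library lay far above every gland-poor one. Tff2, a trefoil peptide secreted with mucins, stood from 283 to 1086 CPM (median 425) in the gland-rich libraries and from 0.0397 to 2.97 CPM (median 0.392) in the gland-poor libraries, a log2 fold of 9.27 ± 0.69. Per kilobase of exon, the mean level in the gland-rich libraries was 886 CPM for Tff2, 596 for Bpifb2, 509 for Muc5b and 381 for Gp2.

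Further secreted and membrane genes of the leading 20 did not overlap between the tiers either. Lman1l, a lectin related to the cargo receptors of the endoplasmic reticulum, stood from 35.3 to 123 CPM (median 50.8) in the gland-rich libraries and from 0.104 to 0.179 CPM (median 0.126) in the gland-poor libraries, a log2 fold of 8.91 ± 0.52. Olfm4, a secreted glycoprotein of mucosal epithelia, stood from 9.31 to 52.3 CPM (median 23.7) in the gland-rich libraries and from 0.0573 to 0.365 CPM (median 0.244) in the gland-poor libraries, and Azgp1, a zinc-binding secreted protein, stood from 4 to 12.7 CPM (median 6.08) in the gland-rich libraries and from 0 to 0.229 CPM (median 0.0641) in the gland-poor libraries. In all 3 the gland-poor libraries were near 0. Dcpp1, Dcpp2 and Dcpp3, secreted proteins of salivary demilune cells, had log2 folds of 6.38 ± 0.60, 8.53 ± 0.65 and 7.99 ± 0.55, and Tmc5, a membrane protein, had 7.75 ± 0.46. Without regorafenib 1 the log2 fold was 10.02 for Dcpp3 and 8.87 for Tmc5, and ranked by Bpifb2 it was 4.85 for Dcpp3 and 4.29 for Dcpp1.

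The mucin genes did not all differ between the tiers. Muc19, the gel-forming mucin of the sublingual gland, stood from 73.3 to 329 CPM (median 168) in the gland-rich libraries and from 0 to 0.313 CPM (median 0.0683) in the gland-poor libraries, and Smgc, a secreted mucin-like protein, had 19 to 77.4 CPM against 2 counts in all 6 gland-poor libraries, a ratio of 2603 (95% interval 720.1 to 21498). Both come from 1 locus on chromosome 15, where their gene models overlap on the same strand, so their reads cannot be fully told apart. The membrane mucins Muc16 and Muc20 had 1 and 2 counts in the gland-poor libraries, for ratios of 627 (95% interval 112 to 24820.2) and 79.6 (95% interval 21.7 to 663). Muc4, another membrane mucin, had a log2 fold of 5.15 ± 0.41. Muc1 and Muc15, which many epithelia express, overlapped between the tiers, with log2 folds of 0.18 ± 0.25 and -0.08 ± 0.11. Of the 16 genes besides Muc5b on a list of gland mucins and their enzymes, 13 passed the filter and 9 of those were counted as higher, with a median log2 fold of 4.76 against -0.02 for all genes.

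Enzymes that build, fold and sulfate mucins were also counted. Agr2, a protein disulfide isomerase needed to fold mucins, stood from 55.4 to 186 CPM (median 84.7) in the gland-rich libraries and from 0.159 to 0.916 CPM (median 0.317) in the gland-poor libraries. Gcnt3, which branches mucin glycans, had a log2 fold of 4.76 ± 0.45, and the sulfotransferases Chst4 and Chst5 had 8.15 ± 0.60 and 5.87 ± 0.49. These were the only 2 counted of 11 Chst family members past the filter, whose median log2 fold was 0.03. Among the Galnt enzymes, which attach the first sugar, Galnt12 stood at 18 ± 6.89 against 3.5 ± 0.753 CPM (mean ± SD, n = 6 each) and Galnt6 at 95.5 ± 32.4 against 31.9 ± 10.8. The whole Galnt family, taken by symbol after the values were seen, had 13 members past the filter, of which 5 were counted as higher, with a median log2 fold of 0.42. Single enzymes of donor supply were also among the 232 genes, picked after the values were seen and with no list of such enzymes behind them: Gne of sialic acid synthesis at a log2 fold of 2.12 ± 0.19, Gfpt1 of hexosamine synthesis at 1.86 ± 0.17, and Papss2 of sulfate activation at 1.72 ± 0.21. B4galnt2, which adds the terminal sugar of the Sda blood group, stood from 16 to 53.6 CPM (median 31.5) in the gland-rich libraries and from 0 to 1.03 CPM (median 0.126) in the gland-poor libraries.

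Of 18 transcription factors listed for gland epithelium, 15 passed the filter and 5 were counted as higher, with a list median of 0.34. The values of 4 of the 5 follow. Spdef, a driver of mucous cell fate, stood at 37.6 ± 15.9 against 5.31 ± 1.71 CPM, a log2 fold of 2.82 ± 0.28. Bhlha15, which builds the secretory apparatus of acinar cells, had a log2 fold of 4.70 ± 0.40, Foxa2 had 4.87 ± 0.58 and Sox9 had 1.01 ± 0.19. Ehf, Elf3, Elf5, Foxa1, Foxc1, Sox2, Sox10, Barx2, Nkx2-3 and Esrrg did not meet the count, and their log2 folds lay between -0.22 for Barx2 and 0.63 for Foxa1.

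Of 20 genes of secretory granules and the endoplasmic reticulum, 19 passed the filter and 7 were counted as higher, with a list median log2 fold of 0.31. They were the membrane factors Creb3l1 and Creb3l4, which induce secretory pathway genes, at log2 folds of 2.20 ± 0.24 and 3.51 ± 0.30, the granule fusion genes Syt7, Sytl2 and Cadps2 at 2.14 ± 0.26, 1.64 ± 0.24 and 2.85 ± 0.22, the degradation factor Derl3 at 1.91 ± 0.35, and Ern2. Ern2, a stress sensor of mucus-secreting epithelia, had 3 counts in the gland-poor libraries, for a ratio of 587 (95% interval 200.5 to 2849). General folding genes were at close levels: the chaperone Hspa5 stood at 532 ± 128 against 522 ± 82.2 CPM, and the stress factor Xbp1 at 177 ± 19.8 against 146 ± 13.8 CPM. Summed over the 20 genes the tiers overlapped, at 1222 to 1784 CPM in the gland-rich and 1132 to 1450 CPM in the gland-poor libraries.

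The genes of fluid secretion split in a similar way. Of 20 listed, 18 passed the filter and 7 were counted as higher, with a list median of 0.57. Aqp5, the water channel of acinar cells, stood from 27.7 to 84.2 CPM (median 38.8) in the gland-rich libraries and from 0.0886 to 1.43 CPM (median 0.251) in the gland-poor libraries. The potassium channel Kcnn4 had a log2 fold of 3.73 ± 0.30, the muscarinic receptors Chrm1 and Chrm3, through which acetylcholine starts secretion, had 3.55 ± 0.47 and 1.72 ± 0.22, the adrenergic receptor Adrb1 had 2.24 ± 0.41, the receptor Vipr1 had 1.15 ± 0.15, and the carbonic anhydrase Car2 had 1.24 ± 0.17. The chloride entry cotransporter Slc12a2 and the chloride channel Ano1 were under the 2-fold mark at 0.66 ± 0.13 and 0.54 ± 0.11. The calcium genes Itpr2, Itpr3 and Stim1, which muscle and epithelium also use, had log2 folds of -0.02 ± 0.07, -0.24 ± 0.11 and -0.10 ± 0.09.

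Simple-epithelial and ductal genes were also in the set. Krt8 and Krt18, the keratin pair of simple epithelia, stood at 21.1 ± 6.05 against 2.33 ± 1.54 CPM and at 37.3 ± 12.1 against 2.56 ± 1.65 CPM. The tight junction genes Cldn10 and Cldn3 had log2 folds of 3.94 ± 0.23 and 4.58 ± 0.35, Krt19 had 1.23 ± 0.20, and the adhesion gene Epcam stood at 51.4 ± 10.7 against 18.2 ± 2.6 CPM, so 6 of the 15 listed genes past the filter were counted. The sodium channel subunits of ducts, Scnn1a, Scnn1b and Scnn1g, had log2 folds of -0.10 ± 0.09, -0.07 ± 0.11 and 0.16 ± 0.13. Cldn2, Cldn3, Cldn7 and Cldn10 were the 4 of 13 claudins past the filter that were counted. Of 7 myoepithelial genes, which smooth muscle shares, 6 passed the filter and only Cnn1, a regulator of contraction, was counted, at a log2 fold of 2.52 ± 0.24. Acta2 and Myh11 overlapped between the tiers.

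Of the genes for secretion of immunoglobulin A, those counted belong to the epithelium. Pigr, the receptor that carries the antibody across gland epithelium, stood from 73.1 to 206 CPM (median 103) in the gland-rich libraries and from 0.532 to 4.18 CPM (median 0.926) in the gland-poor libraries, a log2 fold of 6.51 ± 0.42. Ccl28, a chemokine that draws plasma cells to glands, had a log2 fold of 4.80 ± 0.40. The plasma cell genes stayed low in both tiers: Jchain was at 0.0443 to 1.29 CPM in the gland-rich libraries and at most 0.269 in the gland-poor ones, and Igha was at most 0.719 and 0.992 CPM. Of 18 listed genes 6 passed the filter and 2, Pigr and Ccl28, were counted.

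**Figure D2:**
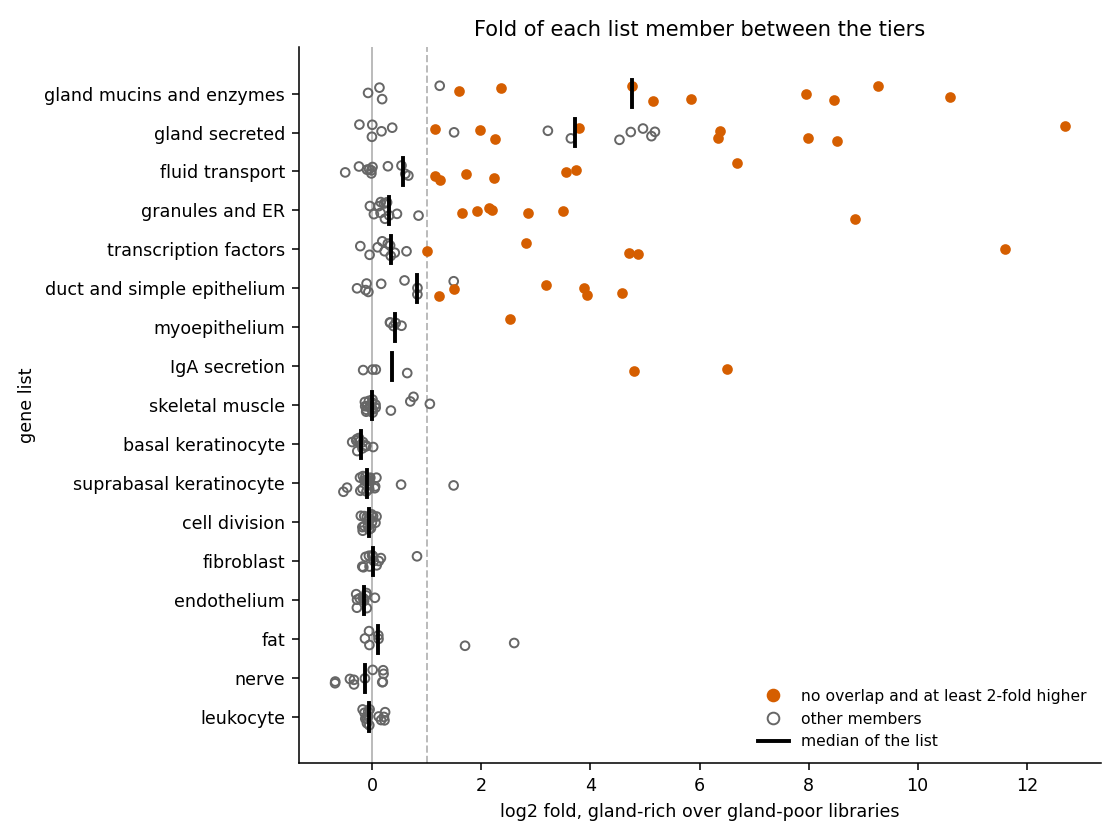
Fold of each listed gene that passed the filter between the 6 gland-rich and 6 gland-poor libraries (x axis, log2), by gene list (y axis); filled points are genes counted as higher, bars are list medians, and Muc5b is left out. Each of the 8 gland lists drawn has counted genes, while the muscle, keratinocyte, cell division, stromal, fat, nerve and leukocyte lists have none. Over all 15968 genes 1.45% were counted as higher, so none is close to that share for lists this short.

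Serous gland genes had another order over the libraries than Muc5b. Lipf, the lipase of von Ebner glands and stomach, had in the gland-rich libraries 28.7 CPM in anti-PD1 1, 6389 in combination 5, 1017 in regorafenib 2, 25848 in vehicle 2, 1284 in regorafenib 3 and 7893 in anti-PD1 2. In the middle libraries, in the order of Muc5b, it had 3227, 8971, 8023, 1978, 3073, 3254 and 0.0831 CPM, and in the gland-poor ones it reached 1003 CPM in regorafenib 1 and 159 in anti-CD40 1 but at most 5.8 in the other 4. The library highest in Muc5b, anti-PD1 1, thus ranked 14th in Lipf, while combination 1 and combination 4, ranked 8th and 9th in Muc5b, ranked 2nd and 3rd in Lipf. The ratio of Lipf to Muc5b was 0.00213 in anti-PD1 1, 4.84 in vehicle 2, 29.9 in combination 1 and 165 in combination 4. This split was noticed in the data and is given as a description.

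Several other products of serous glands were high and low in much the same libraries as Lipf, and others were not. Bpifb1, a secreted defence protein, peaked in vehicle 2 at 16858 CPM and was at 12.6 CPM in anti-PD1 1 and 6344 CPM in combination 1. Amy1, salivary amylase, was at 10374, 40.5 and 3004 CPM in the same 3 libraries, and its reads may be shared with other amylase copies. Bpifa2, a parotid secretory protein, was at 2592, 0.971 and 538 CPM, and Dmbt1, a salivary agglutinin, at 1446, 39.6 and 848 CPM. Over the 19 libraries the Pearson correlation of log2 CPM with Lipf was 0.998 for Bpifb1, 0.988 for Bpifa2, 0.982 for Dmbt1, 0.977 for Prpmp5, 0.962 for Wfdc18 and 0.945 for Amy1, and the correlation of Lipf with Muc5b was 0.60. It was lower for Car6, a secreted carbonic anhydrase, at 0.818, and 0.029 for Lpo, the peroxidase of saliva. These correlations share libraries and scaling and are descriptions only. Lipf and the 6 genes with a correlation of at least 0.945 were not counted between the tiers, since regorafenib 1 lay above anti-PD1 1 in each. Sbpl, a salivary protein with a Lipf correlation of 0.962, was counted: its lowest gland-rich value was 622 CPM in anti-PD1 1 and its highest gland-poor value 455 in regorafenib 1. Per kilobase of exon, the mean level in the gland-rich libraries was 5015 CPM for Lipf, 3136 for Sbpl, 1329 for Bpifb1 and 788 for Amy1.

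**Figure D3:**
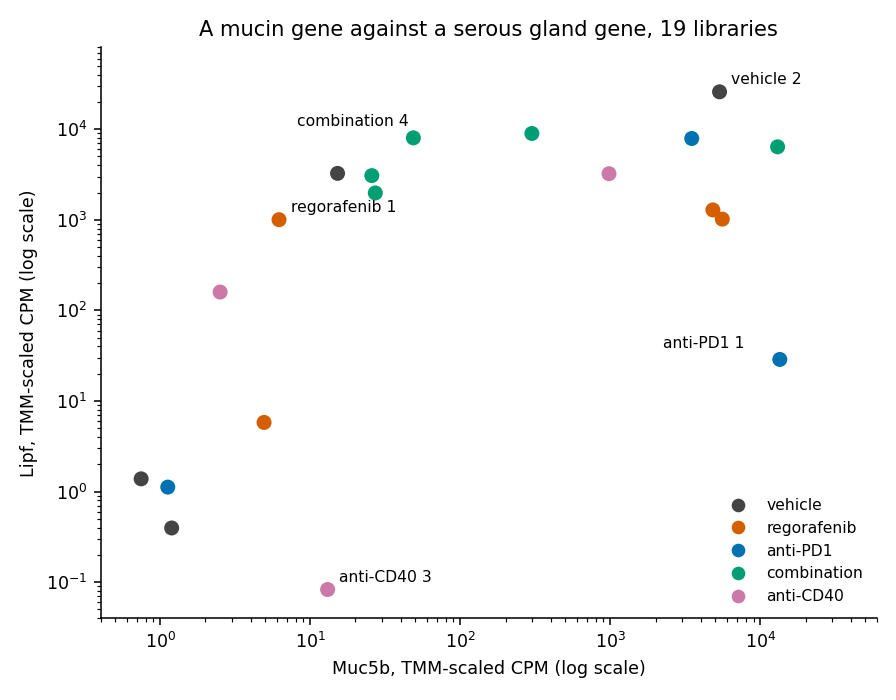
TMM-scaled CPM of Lipf against Muc5b in the 19 libraries (both axes log), coloured by treatment, with 5 libraries named. Anti-PD1 1 combines the highest Muc5b with 28.7 CPM of Lipf, combination 4 has 8023 CPM of Lipf at 48.6 of Muc5b, and anti-CD40 3 has 0.0831 CPM of Lipf.

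On the list of 33 secreted gland proteins, 22 genes passed the filter and 9 were counted as higher, with a median log2 fold of 3.71. The counted genes were Bpifb2, the 3 Dcpp genes, Azgp1, Ltf, Fcgbp, Wfdc2 and Tcn2. Ltf, the iron-binding protein lactoferrin, stood from 54.6 to 127 CPM (median 113) in the gland-rich libraries and from 0.479 to 35.3 CPM (median 1.36) in the gland-poor libraries. Clu, Lyz1, Lcn2, Lpo and Wfdc12, which other cells of these tissues may also express, had log2 folds of 0.00 ± 0.08, -0.01 ± 0.20, -0.24 ± 0.30, 0.37 ± 0.45 and 0.17 ± 0.12. Summed over the list, gland-rich libraries ran from 3329 CPM in anti-PD1 1 to 48949 in vehicle 2, middle ones from 361 in anti-CD40 3 to 17655 in combination 1, and gland-poor ones from 331 in vehicle 3 to 2537 in regorafenib 1.

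A further set of genes had intermediate levels where serous genes were high and Muc5b was low. Pigr had 19.8, 28.5, 15.4, 10.3, 13.6, 7.88 and 0.665 CPM in the 7 middle libraries in the order of Muc5b, Aqp5 had 6.22, 8, 6.4, 1.45, 2.66, 2.85 and 0.582, and Bhlha15 had 3.44, 7.83, 5.39, 2.28, 3.84, 2.44 and 0.789. In anti-CD40 3, the library lowest in Lipf, each of the 3 was at its lowest middle value. The correlation of Bhlha15 was 0.927 with Muc5b and 0.754 with Lipf, and that of Pax1, a developmental factor of the pharynx, was 0.82 with Muc5b and 0.90 with Lipf, again as descriptions over 19 libraries. By the same measure the genes most like Muc5b, of 14564 compared, included Gp2 (0.992), Lrrc26 (0.979), Muc19 (0.978), Bpifb2 (0.976), Agr2 (0.974), Ppp1r1b (0.972) and Cldn2 (0.969). These r values rest on the same libraries that define the tiers.

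**Figure D4:**
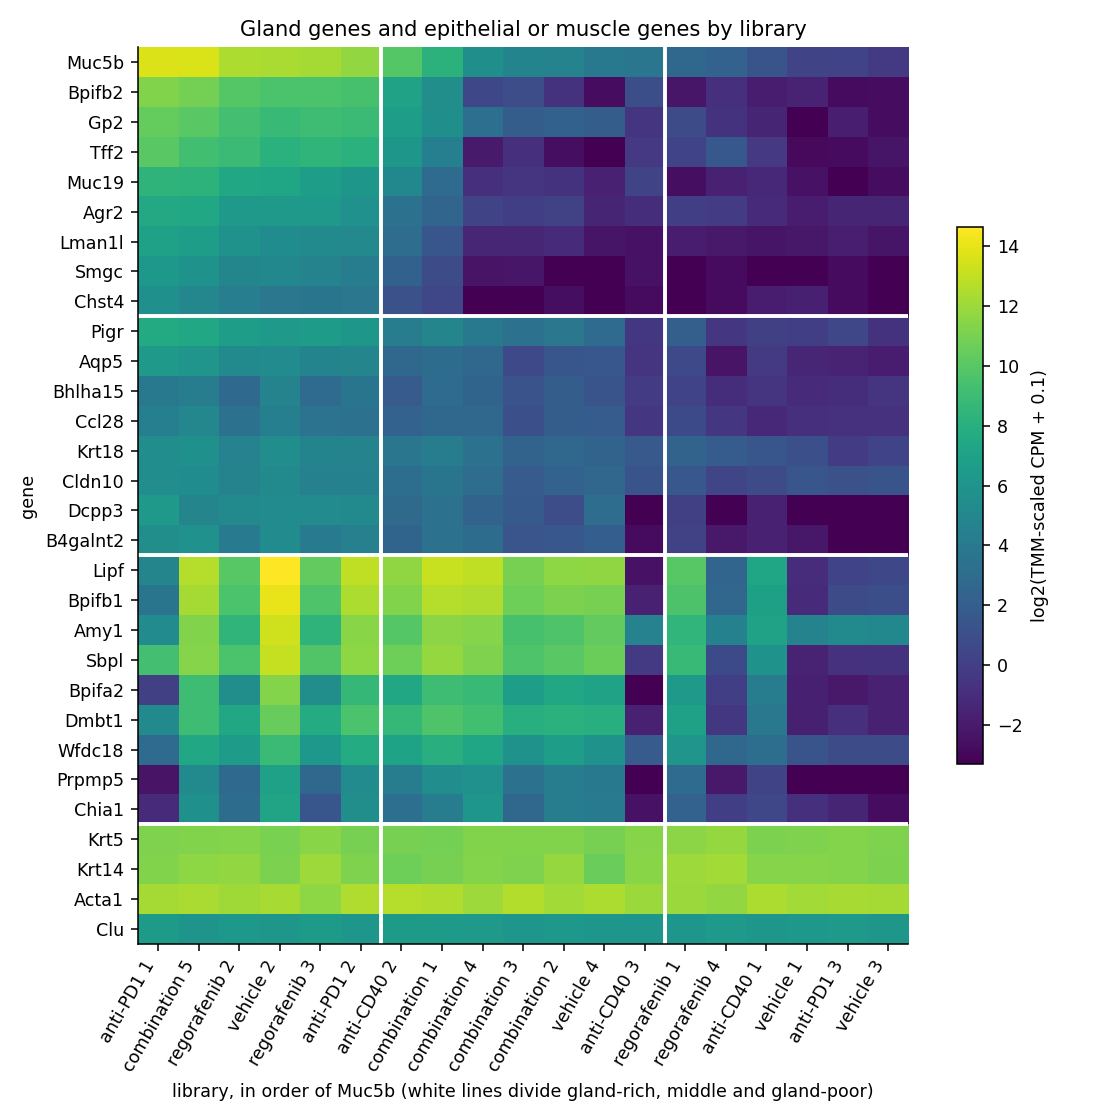
Level of 30 genes (rows, log2 of TMM-scaled CPM plus 0.1) in the 19 libraries in order of Muc5b (columns). The first block of rows fades with Muc5b, the second remains visible in the middle libraries, the third (Lipf to Chia1) peaks in vehicle 2 and has its lowest gland-rich values in anti-PD1 1, and Krt5, Krt14, Acta1 and Clu are at similar levels throughout.

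Genes listed for the major glands summed to 161 to 13048 CPM in the gland-rich, 56.5 to 3584 CPM in the middle and 50.8 to 476 CPM in the gland-poor libraries, with most of the high sums from Amy1 and Bpifa2, whose values are given above. Egf, a growth factor, stood at 15.1 to 32.9 CPM in the gland-rich libraries and at most 21.7 in the gland-poor ones. The kallikrein Klk1b9 and renin Ren1, products of submandibular ducts, were at most 0.398 and 0.0971 CPM in any gland-rich library, and Prol1 was at most 0.0995 CPM. Of 15 listed genes 6 passed the filter and 1, Smgc, was counted. The ductal ionocyte factors Ascl3 and Foxi1 were at most 0.101 and 0.0563 CPM.

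Summed levels of other cell types overlapped between the tiers, for nerve only through 1 library. The summed level of 19 skeletal muscle genes was 31924 to 57068 CPM in the gland-rich and 34997 to 54675 CPM in the gland-poor libraries, with a median log2 fold of 0.00, and none was counted. The 12 basal keratinocyte genes summed to 6698 to 10179 CPM against 7591 to 12058 CPM, the 21 suprabasal genes to 63981 to 89036 CPM against 72195 to 88125 CPM, and the 18 cell division genes to 379.5 to 529 CPM against 409 to 563 CPM. None of the fibroblast, endothelial, leukocyte, fat, red cell or nerve genes that passed the filter was counted in either direction, nor any of the 3 of 10 stomach and 4 of 13 taste genes that passed it. Over all genes 1.45% were counted as higher, so none is close to that share for lists this short. No pancreas gene passed the filter, but the pancreas list summed to 17.3 CPM in regorafenib 2, 22.5 in regorafenib 1 and 18.3 in regorafenib 4. That sum was 2.48 CPM in regorafenib 3 and at most 0.777 in libraries of other treatments. The nerve list summed to 153 to 469 CPM against 300.0 to 355 CPM, and its highest value was anti-PD1 1. The other 5 gland-rich libraries, at 153 to 248.5 CPM, were all below every gland-poor library. Without that library 8 genes were counted as lower, in place of 1. The fat genes Cidec and Cfd were highest in anti-PD1 1, at 4.56 and 13.8 CPM, but the summed fat list was not. That sum was 2118 CPM in anti-PD1 1, and ran from 1375 to 2529 CPM in the gland-rich and 1592 to 2380 CPM in the gland-poor libraries. The stomach genes Pgc and Gkn1 were at 41.1 and 12.8 CPM in regorafenib 1 and 51.8 and 24.5 in regorafenib 4, both gland-poor, and Pgc was at 38.2 CPM in the gland-rich regorafenib 2. The part of these cell types in the gland differences was not tested.

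Treatment was not balanced over the tiers, so the fold of each of the 232 genes was also fitted with treatment as a covariate. There 219 of the 232 kept at least a 2-fold difference, and the median log2 fold of the set was 2.19 in place of 2.34. For Bpifb2 the log2 fold became 12.26, for Gp2 10.43 and for Krt18 3.84. These genes were counted for lying higher in these same gland-rich libraries, so a difference within each treatment was built in. The part of treatment was thus not tested by this fit. The combination and anti-CD40 have 1 library each in the outer tiers, which their group terms absorb, so these add nothing to the folds. Only regorafenib has 2 libraries in each outer tier.

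The 7 middle libraries show whether genes went with Muc5b where the tiers were not drawn. Of 14718 genes tested, 2 (0.0136%) rose with log2 Muc5b and none fell by edgeR's quasi-likelihood test with Benjamini-Hochberg adjustment. Gp2 had 109, 49.5, 9.43, 3.79, 4.73, 3.84 and 0.54 CPM in the order of Muc5b, a slope of 0.95 ± 0.07 log2 units per log2 unit of Muc5b (SE, edgeR adjusted p = 0.00531). It was highest in anti-CD40 2 and combination 1. Nupr1, a stress-response chromatin protein, had 79.5, 54.5, 22.5, 15.9, 17.9, 21 and 11.2 CPM, a slope of 0.41 ± 0.04 (edgeR adjusted p = 0.0148). Between the tiers Nupr1 stood from 219.9 to 1107 CPM (median 463) in the gland-rich libraries and from 10.7 to 15.9 CPM (median 12.6) in the gland-poor libraries. The next 3 rising genes, Golm1, Cldn2 and Arrdc2, had edgeR adjusted p-values of 0.182, 0.515 and 0.612, and Golm1 overlaps Naa35 on the opposite strand, so its reads may be mixed. The 5 falling genes with the smallest p were Serpinb3c, Fam3b, Slurp2, Phf21b and Hephl1, with edgeR adjusted p-values of 0.629 to 0.686. At an unadjusted p under 0.05, 640 genes rose and 382 fell, and DESeq2 called 12 rising and 3 falling.

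Both rising genes are among the 232. Of these 232 genes 135 passed the filter in the middle libraries, where 130 had a positive slope, against 48% of all genes tested, and 56 rose at an unadjusted p under 0.05. No member of the 8 gland lists passed by edgeR (87 tested, 18 rising and 2 falling at an unadjusted p under 0.05), and DESeq2 called 2. The filter asks for counts in every middle library and so left out genes that were near 0 in some of them, such as Bpifb2 and Tff2. With 10 counts in at least 2 libraries as the filter, an alternative chosen after the data were seen, 11 of 16636 genes (0.0661%) passed as rising by edgeR, all of them among the 232. This count is no support for a rise with Muc5b, since a gene could enter through the 2 libraries highest in Muc5b. Bpifb2, for example, had 134, 48.2, 1.39, 1.84, 0.532, 0.0518 and 1.87 CPM, with the 2 highest values there. Without anti-CD40 2, the highest in Muc5b, 2 genes passed with that filter and none with the first one, where Gp2 had a slope of 1.04 with an edgeR adjusted p of 0.224 and Nupr1 one of 0.42 with 0.367. Gp2 still passed when any 1 of the other 6 libraries was left out. Nupr1 did not pass without combination 1, 2, 3 or 4 either, with edgeR adjusted p-values of 0.0873, 0.0616, 0.0626 and 0.0689. With the rank of Muc5b as predictor no gene passed by edgeR. Treatment was not fitted beside Muc5b here, and 4 of the 7 libraries are from the combination, so its part was not tested.

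**Figure D5:**
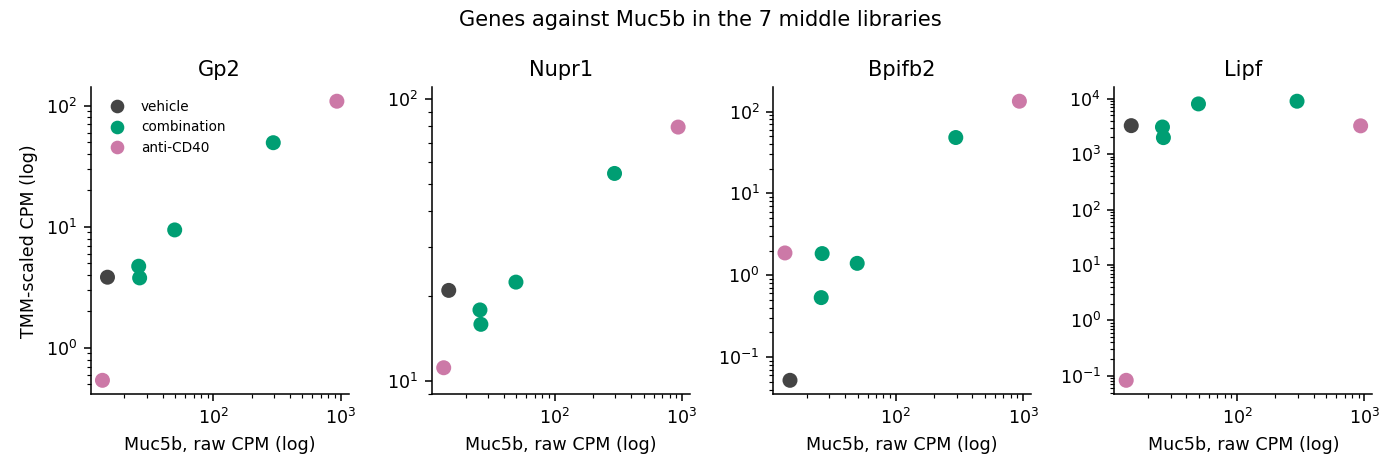
TMM-scaled CPM of Gp2, Nupr1, Bpifb2 and Lipf (y axes, log) against raw CPM of Muc5b (x axes, log) in the 7 middle libraries, coloured by treatment. Gp2 goes from 0.54 CPM in anti-CD40 3 to 109 in anti-CD40 2, while Lipf is at 1978 CPM or more in 6 libraries and at 0.0831 in anti-CD40 3.

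Whether treatment went with Muc5b was tested on all 19 libraries. Mean log2 (Muc5b CPM + 0.1) was 4.09 ± 5.78 (SD, n = 4) with vehicle, 7.44 ± 5.69 (n = 4) under regorafenib, 8.59 ± 7.29 (n = 3) under anti-PD1, 7.39 ± 3.80 (n = 5) under the combination and 5.00 ± 4.38 (n = 3) under anti-CD40. The differences from vehicle were 3.36, 4.51, 3.31 and 0.92 in that order, each smaller than the SD within at least 1 of its groups. Two-sided exact permutation tests gave p = 0.371 for regorafenib, p = 0.514 for anti-PD1, p = 0.302 for the combination and p = 0.857 for anti-CD40, with Benjamini-Hochberg adjusted values over the 4 comparisons of 0.686 for the first 3 and 0.857 for the last. The smallest p that 4 against 4 libraries allows is 0.0286. The two-sided p doubles the smaller tail, so 4 against 3, as for anti-PD1 and anti-CD40, allows no p under 0.05. For the combination, 5 against 4 does allow an unadjusted p under 0.05. For anti-CD40 the direction turned without anti-CD40 2 (-1.51), vehicle 1 (-0.32) or vehicle 3 (-0.53), and its mean CPM was below that of vehicle, at 332 against 1340 TMM-scaled CPM. A p above the threshold does not show that treatments are alike in Muc5b, and the 4 comparisons share the vehicle libraries.

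Gland genes tested one by one gave few calls. Of 122 gland list members tested against vehicle by edgeR, 1 passed as higher with regorafenib, where 3.29% of 16909 genes did, and 3 as lower, where 2.84% did. The higher one was Sdc1, a heparan sulfate proteoglycan of epithelia and plasma cells, at 421 ± 36.7 against 312 ± 32.8 CPM (SD, n = 4 each), which is 0.43 ± 0.09 (SE) on the log2 scale with an edgeR adjusted p of 0.0138. The lower ones were Stim1, a calcium sensor, at a log2 change of -0.39 ± 0.07 (edgeR adjusted p = 0.00822), the potassium channel Kcnma1 at -0.62 ± 0.17 (edgeR adjusted p = 0.0439) and Sox10, a factor of glia and gland progenitors, at -0.65 ± 0.18 (edgeR adjusted p = 0.0398). None of these 4 was counted between the tiers. DESeq2 called 2 higher and 4 lower. The higher count was 0 without vehicle 4 or regorafenib 4, 3 without vehicle 2, and 2 without vehicle 1, anti-PD1 2, anti-PD1 3, anti-CD40 2 or anti-CD40 3. The lower count was 1 without vehicle 2, vehicle 4, regorafenib 3 or regorafenib 4. Under anti-PD1 no member passed by edgeR or DESeq2 (8 higher and 3 lower at an unadjusted p under 0.05), where 0.00591% of all genes passed as higher and 0% as lower. Under the combination none passed by either tool (3 and 5 unadjusted), where 0% of genes passed as higher and 0.0237% as lower, and under anti-CD40 none passed (0 and 6 unadjusted), where 0% of genes passed in each direction. None of the 232 genes passed in any treatment by edgeR, and those at an unadjusted p under 0.05 were 3, all higher with anti-PD1. The median log2 change of the 232 from vehicle was 0.28 under regorafenib, 0.92 under anti-PD1, 0.43 under the combination and -0.76 under anti-CD40.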

How the data were processed

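RNA was sequenced from 19 mouse oral tumour samples, and 1 table of read counts per gene was deposited. Per the submitters' processing notes, cutadapt 2.4 and STAR 2.7.2a were used with GRCm38, and the deposited values are raw counts that were not normalized. Which counter, strand setting and annotation were used is not given in the sources used here. Of 55487 gene IDs, 55227 matched GENCODE M21, which gave names, positions and exon lengths.

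Groups came from the labels. Members and gene lists were chosen with earlier results of these data known. The 12 outer libraries were scaled by TMM and fitted with edgeR 4.0.16 (R 4.3.3) for folds only, after its filter on low counts. A gene was counted when the tiers did not overlap and the fold reached 2. Named genes were the 20 with the largest fold and a mean of at least 5 CPM (for lower genes 10, at least 1 CPM), without predicted genes, the gland list members, and the 5 smallest p-values per direction in the middle libraries. No lower gene met this rule. Some genes that the rule names are not reported here. Slopes on log2 Muc5b and treatment contrasts (1 fit over all 19 libraries) used edgeR's quasi-likelihood test with Benjamini-Hochberg adjustment at 0.05. DESeq2 1.42.0 was the alternative. Muc5b by treatment used log2 (raw CPM + 0.1) and exact permutation tests. Count ratios have exact 95% intervals, which cover counting error only. Every pair of libraries differed by more than sampling noise (the smallest chi-square was 11.9 per degree of freedom). Tested on simulated data with 200 changed genes, the slope test recovered 92% of slopes of 0.2 (14719 genes). The regorafenib contrast recovered 92% of log2 changes of 1 in such data (15944 genes, where the reported fit had 16909). The simulated data gave every gene the same dispersion, at most 0.05, and changed only genes of at least 5 CPM. The regorafenib simulation was modelled on the 4 vehicle and 4 regorafenib libraries alone, where the reported fit used all 19. Genes of lower level or wider spread were not simulated as changed, and recovery in the real libraries was not tested. In the 7 middle libraries, slopes of 0.228 for Golm1 and 0.294 for Cldn2 had edgeR adjusted p-values of 0.182 and 0.515.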

Additional observations from a re-analysis of the deposited data

Results flagged for a closer look

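In 59 groups of 6 library values (named genes and summed lists within a tier), 3 had a library far from the others, and chance alone gives about 1 in 20. Dcpp3, a secreted gland protein, was at 84.8 CPM in anti-PD1 1 among the gland-rich libraries, with a gap to the nearest library of 0.663 of the whole range. Tmc5, a membrane protein of the channel-like Tmc family, was at 0.401 CPM in regorafenib 1 among the gland-poor libraries (0.739 of the range), the library that also had the most Lipf of that tier. The summed level of duct and simple-epithelial genes was 219.5 CPM in anti-CD40 1, the lowest gland-poor value (0.655 of the range).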

How the results depend on the processing

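The count of genes higher in the gland-rich libraries ran from 158 (7 libraries a tier) to 314 (no filter on low counts) over the alternatives and from 223 to 260 when 1 library was left out. The count of lower genes, 1 as reported, was 6 with no filter, 3 with 5 libraries a tier, 2 when ranked by the mean of the mucin and secreted lists, 19 with treatment as a covariate (by fold alone), and 1 to 8 when 1 library was left out. Ranking by Bpifb2 or by that list mean kept 6 of 6 gland-rich and 5 of 6 gland-poor libraries. Bpifb2 was picked out by its fold between these same tiers, and the lists were written with earlier results known. Neither ranking is therefore an independent check of the tiers.

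In the middle libraries the rising genes, 2 as reported, were 13 with no filter, 11 with 10 counts in at least 2 libraries, 12 by DESeq2 and 0 with the rank of Muc5b as predictor, and 0 to 3 when 1 library was left out. Those among the 232 genes were 13, 11, 11 and 0 in that order, and 0 to 3. Rising gland list members were 5 with no filter, 5 with 10 counts in at least 2 libraries (2 when anti-CD40 2 was also left out), 2 by DESeq2, and 0 to 1 when 1 library was left out. Falling genes were 3 by DESeq2 and 0 to 2 when 1 library was left out. The cause was not tested.

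Gland list members higher under regorafenib were 2 by DESeq2 and 0 to 3 when 1 library was left out, and lower ones 1 to 4. The Muc5b difference from vehicle ran from -1.51 to 3.66 for anti-CD40 (with -0.32 without vehicle 1 and -0.53 without vehicle 3), 1.91 to 8.67 for anti-PD1, 1.73 to 6.05 for the combination and 1.69 to 6.10 for regorafenib when 1 library was left out.

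With the replicate number as a block, 1 gland list member was higher and 3 were lower under regorafenib and 0 passed under the other treatments, as without it. Correlations of deviations in the 33 same-numbered pairs ran from -0.59 to 0.79 (13 over 0.1). Differently numbered pairs were not compared, so these values do not decide whether the numbers pair libraries. The numbers are those of the sample titles, and some count columns carry other numbers.

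For single named genes, 131 of the fold values stayed within 1 SD and 29 moved under the other alternatives, and 4 moved against 236 that did not when 1 library was left out: Dcpp3 to 10.02, Tmc5 to 8.87 and B4galnt2 to 8.38 without regorafenib 1, and Ern2, which has few counts, without regorafenib 4. Genes near 0 in the gland-poor libraries are limited by depth: their folds rest on few counts.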
